A study of Mus musculus with 8 samples.

Results

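The Ifi200 genes are a family of interferon-inducible genes, several of them for intracellular DNA sensors, that lie next to each other on mouse chromosome 1. The 9 members described here (Aim2, Ifi213, Ifi209, Ifi207, Ifi204, Mndal, Ifi211, Ifi203 and Ifi205) were taken by gene symbol from the 41388 genes of each count table. They were chosen by measured values: their higher counts in ANKO than in WT were known when the family was picked, so their own changes are given as a description, with no test. The other 5 annotated genes of the cluster are given beside them.

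RNA was sequenced from the brown adipose tissue of 8 mice of strain C57BL/6J, held at room temperature on a regular chow diet; no age is stated. The 4 ANKO mice carried floxed Nampt alleles together with a Cre transgene under the promoter of adiponectin, an adipocyte hormone, so that recombination is aimed at fat cells. The 4 WT mice were flox/flox and are labelled wild type. The comparison asks how brown fat RNA differs when adipocytes lose Nampt, the enzyme that makes nicotinamide mononucleotide in the salvage route to NAD+. Nampt was at 483.7 to 571 CPM in the WT mice and at 67.4 to 77.6 CPM in the ANKO mice, a remainder of 14.2% of the WT mean, with no overlap between the groups. CPM here is the count per 1e+06 of the scaled library total. Library totals ran from 5738067 counts (ANKO4) to 49697156 (WT4), so that 3 counts were worth between 0.0604 and 0.523 CPM before scaling.

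The proteins of this family join a pyrin domain, which binds other pyrin domains, to 1 or more HIN domains, which bind DNA; some members hold only one of the kinds of domain. Aim2 binds double-stranded DNA in the cytosol and assembles an inflammasome with the adaptor Pycard and the protease Casp1. Ifi204 senses DNA and signals through STING, and is often compared with human IFI16. Type I interferon induces many of these genes in macrophages and other immune cells.

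The cluster covered chromosome 1 from 173350879 to 174031755 in GRCm38, with Aim2 at its proximal end and Ifi205 at its distal end, and held 14 annotated genes in the tables. Its genes arose by duplication, and the copies remain close. Over aligned coding sequence (GENCODE M21) Ifi204 and Ifi211 were 94.7% identical, Ifi211 and Ifi205 were 94.7% identical, and Ifi213 and Ifi208 were 96.9% identical. Aim2 stood farthest from the rest, with at most 52.0% identity to any other gene of the cluster. The coding sequences of the members ran from 1062 bases in Aim2 to 2934 bases in Ifi207.

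Close copies matter for counting, because a read from a shared stretch cannot be placed. Of the 50-base windows of the Ifi211 transcripts, 72.8% were also found in another gene, 44.7% in Ifi205 alone. The share was 33.7% in Ifi209, 20.02% in Ifi204, 19.6% in Mndal, 18.6% in Ifi205, 15.6% in Ifi213, 12.4% in Ifi203, 7.29% in Ifi207 and 0.742% in Aim2. With 100-base windows it was 56.9% in Ifi211 and 0% in Aim2. These shares cover the GENCODE M21 transcripts, not the counted exons. Ifi205 has 4177 exon bases there against 1613 counted, and Ifi204 has 3561 against 2253. Their shares over the counted exons may be higher and were not computed. No source used here gives the read length, the strand setting or the handling of reads with several placements, so the values of Ifi211 are uncertain and those of Aim2 and Ifi207 are the least affected by shared sequence. Mndal and Ifi203 also had 37 exon bases in common in the tables, and the annotated span of Mndal (173857220 to 173942491) ran across Ifi211 into Ifi203.

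**Figure D1:**
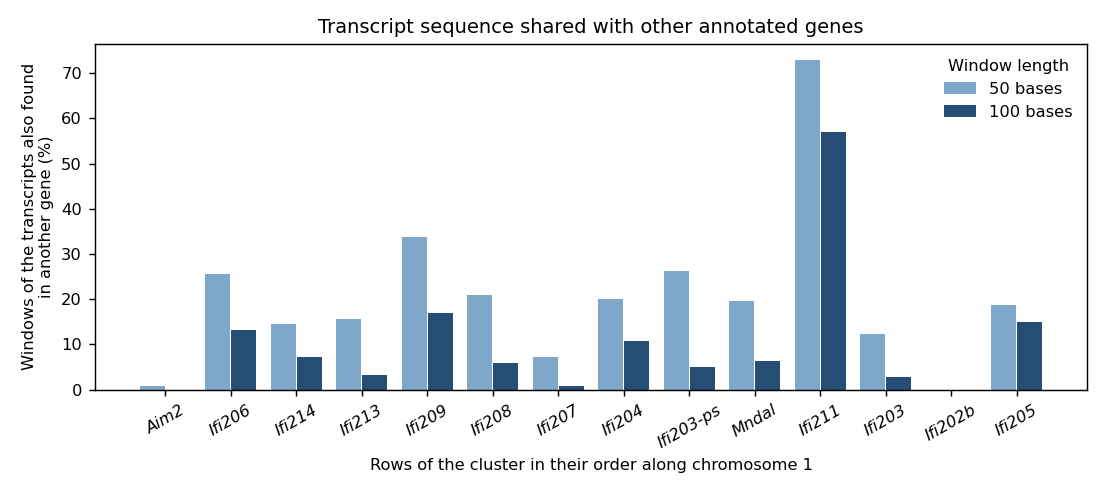
Share of 50-base and 100-base transcript windows (y axis, %) that also occur in another annotated gene, for the 14 genes of the cluster in their order on chromosome 1 (x axis). Ifi211 stands highest at 72.8% and 56.9%, and Aim2 is at 0.742% and 0%.

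The sequences at the starts of the genes also resembled each other. A RefSeq promoter (GRCm38.p6, 250 bases before to 50 bases after the start) was at hand for 8 of the 9 members, all but Ifi204. The core of the interferon-stimulated response element, read as GAAA followed after any 2 bases by GAAA again, on either strand, was found for 6 of these 8 members, Ifi213, Ifi207, Mndal, Ifi211, Ifi203 and Ifi205. It was found for 3.99% of all 27025 genes with a promoter in that set. The windows below give 40 bases around the run, 5′ to 3′ on the gene's strand, and are shown because 4 members hold the same 10 letters at this place; capitals mark the run or the 10 bases nearest to it.
Ifi213: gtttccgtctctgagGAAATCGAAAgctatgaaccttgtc
Ifi207: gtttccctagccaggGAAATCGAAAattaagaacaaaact
Mndal: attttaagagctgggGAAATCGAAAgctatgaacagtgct
Ifi203: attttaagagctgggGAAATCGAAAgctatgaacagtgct
Ifi211: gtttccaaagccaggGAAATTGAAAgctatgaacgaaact
Ifi205: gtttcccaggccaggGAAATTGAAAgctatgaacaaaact
Ifi209: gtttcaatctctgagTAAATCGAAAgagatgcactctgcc
These lie at chr1:173599321-173599360 for Ifi213, chr1:173741826-173741865 for Ifi207, chr1:173880199-173880238 for Mndal, chr1:173942503-173942542 for Ifi203, chr1:173913059-173913098 for Ifi211 and chr1:174031865-174031904 for Ifi205, all on the minus strand, and at chr1:173630765-173630804 on the plus strand for Ifi209. Mndal and Ifi203 share all 40 bases. The run began 35 to 41 bases before the start in Ifi203, Mndal, Ifi211 and Ifi207, 73 before it in Ifi213 and 134 before it in Ifi205. Mndal and Ifi203 each had a further RefSeq promoter without the run, where the nearest 10 bases differ from it at 3 and 4 positions. The further promoter of Mndal held the core on the other strand. Ifi205 also held a core match on the other strand after its start.

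Counted from 1 at the 5′ end of GAAATCGAAA, Ifi211 and Ifi205 differ by C6T and Ifi209 by G1T. Ifi209 therefore has no match to the element's core in this promoter. The exact run GAAATCGAAA, searched for after the members' promoters had been seen, occurred for 16 of the 27025 genes (0.0592%). Of these 16, 7 were genes of the cluster: Ifi213, Ifi207, Mndal, Ifi203, Ifi206, Ifi208 and Ifi214. The other 9 included Ddx58, which encodes the RNA sensor RIG-I. Since the genes of the cluster are duplicates, these 7 are not separate occurrences.

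Aim2 had no match to the core; its closest 10 bases differ from GAAATCGAAA at 4 positions. It had 1 match to GAGGAAGT, a motif of the myeloid factor PU.1, which 3.69% of all genes hold and which was in no other promoter of the cluster. The promoters of Ifi213, the member with the largest fold change, and of Aim2 are given whole for comparison, with the matched motif in capitals (chr1:173599223-173599522, minus strand, and chr1:173420354-173420653, plus strand).
Ifi213: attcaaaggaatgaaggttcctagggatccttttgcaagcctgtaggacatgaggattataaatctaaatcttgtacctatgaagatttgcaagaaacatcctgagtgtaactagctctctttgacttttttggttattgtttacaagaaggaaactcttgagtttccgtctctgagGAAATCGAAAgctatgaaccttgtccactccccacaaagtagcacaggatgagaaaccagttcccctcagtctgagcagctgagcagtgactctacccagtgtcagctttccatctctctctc
Aim2: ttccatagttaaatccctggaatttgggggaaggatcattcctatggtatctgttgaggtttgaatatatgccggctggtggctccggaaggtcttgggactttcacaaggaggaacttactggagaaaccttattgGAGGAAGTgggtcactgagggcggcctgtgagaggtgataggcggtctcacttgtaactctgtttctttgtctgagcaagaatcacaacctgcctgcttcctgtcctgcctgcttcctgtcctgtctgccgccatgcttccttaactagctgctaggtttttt
The composite motif of ETS and IRF factors, GGAA followed after any 2 bases by GAAA, was in no promoter of the cluster, against 3.16% of all genes. The STAT dimer motif TTCNNNGAA was in 9.55% of all genes and, within the cluster, in Ifi202b alone. A match describes letters in a window and does not show that a factor binds there, and a window without a match says only that these letters are not in it.

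All 9 members were higher in ANKO, and for each of them every ANKO library lay above every WT library. Across the 16705 genes tested, 58.2% were called in either direction, 30.6% higher and 27.6% lower in ANKO, at an adjusted p under 0.05 (edgeR quasi-likelihood test) and 28.7% had every ANKO library above every WT library. All 9 members passed the filter on low counts and were called higher, which the choice of members already contained. Their median log2 fold change was 2.78 with a range from 1.58 to 4.74, and the median of all genes tested was -0.01. Summed over the 9 members, the level was 57.7, 65.2, 77.7 and 75.9 CPM in WT1 to WT4 and 285, 295, 308 and 361 CPM in ANKO1 to ANKO4, a log2 fold change of the summed counts of 2.17 ± 0.13 (SE, n = 4 each).

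Aim2 (ENSMUSG00000037860), the inflammasome sensor, was at 0.891, 0.505, 0.946 and 1.07 CPM in the 4 WT libraries and at 7.38, 8.07, 8.23 and 9.18 CPM in the 4 ANKO libraries. It was barely read in WT, with 13 to 47 counts, and the ANKO libraries lay close together and far above. The log2 fold change was 3.23 ± 0.23, or 9.40-fold; fold changes are given with their SE and mean levels with their SD throughout, over 4 mice in each group.

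Ifi204 (ENSMUSG00000073489), the DNA sensor acting through STING, was at 3.27, 5.90, 6.80 and 6.96 CPM in the WT mice and at 38.2, 36.8, 39.3 and 45.0 CPM in the ANKO mice. WT1 was the low library of its group, and the ANKO libraries differed little. Its log2 fold change was 2.78 ± 0.21, or 6.85-fold.

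Ifi213 (ENSMUSG00000073491) showed the steepest rise of the members. It was at 0.792, 0.622, 1.13 and 1.18 CPM in the WT mice and at 26.1, 27.5, 21.8 and 27.7 CPM in the ANKO mice. Even the lowest ANKO library was 18.4 times the highest WT library, and the log2 fold change was 4.74 ± 0.20, or 26.8-fold.

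Ifi209 (ENSMUSG00000043263) came next, at 1.04, 1.20, 1.01 and 1.27 CPM in the WT mice and 18.0, 21.2, 19.0 and 20.98 CPM in the ANKO mice. Both groups were tight, with coefficients of variation of 11.4% and 7.88%. Its log2 fold change was 4.11 ± 0.14, or 17.3-fold, and 33.3% of its 50-base windows were shared with Ifi214, which was itself read at a low level.

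Ifi211 (ENSMUSG00000026536) went from 0.693, 1.13, 1.34 and 1.21 CPM in WT to 8.11, 9.57, 9.74 and 8.60 CPM in the ANKO mice. The groups were well apart, with a log2 fold change of 3.01 ± 0.21. Most of its sequence is shared with other members, and how its reads were divided among them was not tested.

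Ifi207 (ENSMUSG00000073490) was at 6.53, 10.5, 12.1 and 14.9 CPM in the WT mice and at 49.1, 42.3, 63.3 and 62.1 CPM in the ANKO mice. It varied in both groups, with WT1 lowest, and its log2 fold change was 2.29 ± 0.24.

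Ifi203 (ENSMUSG00000039997) and Mndal (ENSMUSG00000090272) were the members with the most counts already in WT and rose the least apart from Ifi205. Ifi203 was at 23.4, 22.8, 26.3 and 22.0 CPM in the WT mice and at 71.8, 74.8, 71.9 and 92.5 CPM in the ANKO mice, a log2 fold change of 1.71 ± 0.11. Mndal was at 18.7, 17.9, 18.9 and 15.2 CPM in the WT mice and at 50.6, 54.7, 51.1 and 67.9 CPM in the ANKO mice, a log2 fold change of 1.66 ± 0.12. ANKO4 was the highest library for both, and WT was tight for both, with coefficients of variation of 7.92% and 9.78% against a median of 15.6% over all genes tested.

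Ifi205 (ENSMUSG00000054203) had the widest spread. It was at 2.38, 4.62, 9.12 and 12.1 CPM in the WT mice and at 15.5, 20.3, 23.4 and 27.5 CPM in the ANKO mice. The WT libraries differed 5.10-fold among themselves, and the lowest ANKO library was only 1.28 times the highest WT library. The log2 fold change was 1.58 ± 0.44, the least precise of the 9, and was 2.58 without WT3 and WT4, the WT libraries with the lowest skeletal muscle marker level.

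**Figure D2:**
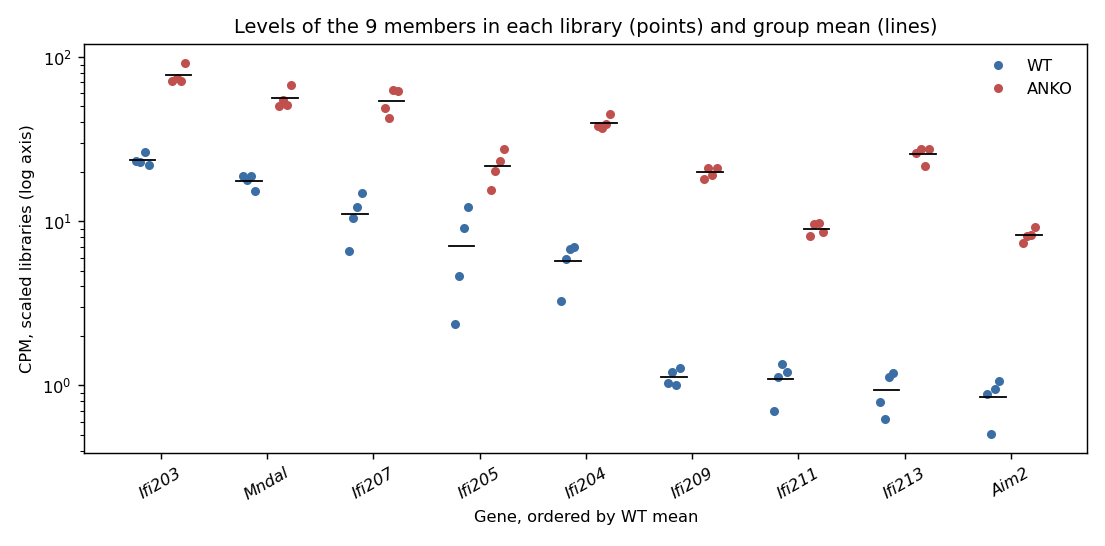
Level of each member (x axis, ordered by WT mean) in CPM on a log axis; points are the 4 WT and 4 ANKO libraries and lines are group means. No member's groups overlap, and Ifi205 comes closest, with WT up to 12.1 CPM and ANKO from 15.5 CPM.

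Members can be set against each other only per length, as RPKM from the gene lengths in the tables. In WT the order was Mndal (5.14 RPKM), Ifi205 (4.38), Ifi203 (3.53), Ifi207 (3.16) and Ifi204 (2.55), and each of these overlapped its neighbour in the order over the 4 libraries. Below them and apart from them came Ifi211 at 0.661 RPKM, then Ifi209 (0.324), Aim2 (0.244) and Ifi213 (0.136), of which Ifi209 and Aim2 overlapped, as did Aim2 and Ifi213. In ANKO the order was Ifi204 (17.7 RPKM), Mndal (16.3), Ifi207 (15.6), Ifi205 (13.4) and Ifi203 (11.6), again with neighbours overlapping. Ifi209 (5.66) and Ifi211 (5.45) followed, overlapping each other, and then Ifi213 (3.77) and Aim2 (2.35) on their own. Aim2 thus had the lowest per-length level of the 9 in ANKO and Ifi213 had it in WT.

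The lengths decide part of this order. Ifi204 has 2253 exon bases in the tables and 3561 in GENCODE M21, and Ifi205 has 1613 and 4177. With the GENCODE M21 lengths Ifi204 averaged 11.2 RPKM and Ifi205 5.19 RPKM in ANKO, which put them 4th and 6th, and the summed ANKO level fell from 91.8 to 76.0 RPKM. Reads were counted over the exons in the tables alone, so the longer lengths lower these levels by construction. Fold changes are not touched by length.

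With the lengths of the counted exons, on which these shares depend, the make-up of the family differed between the groups for some members. The shares of Ifi207 overlapped, at 12.7% to 17.7% in WT and 14.1% to 19.6% in ANKO. Mndal and Ifi203 together held 31.9% to 60.3% of the summed per-length level in WT and 27.6% to 31.5% in ANKO, ranges that nearly met. Ifi213 held 0.495% to 0.782% in WT and 3.44% to 4.67% in ANKO, and Ifi209 held 1.25% to 2.01% and 5.65% to 7.03%. The share of Aim2 ran from 0.786% to 1.72% in WT and from 2.47% to 2.67% in ANKO. Ifi205 was the least steady component, at 9.94% in WT1 and 31.1% in WT4, and its ANKO shares of 11.7% to 16.1% lay within that span.

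**Figure D3:**
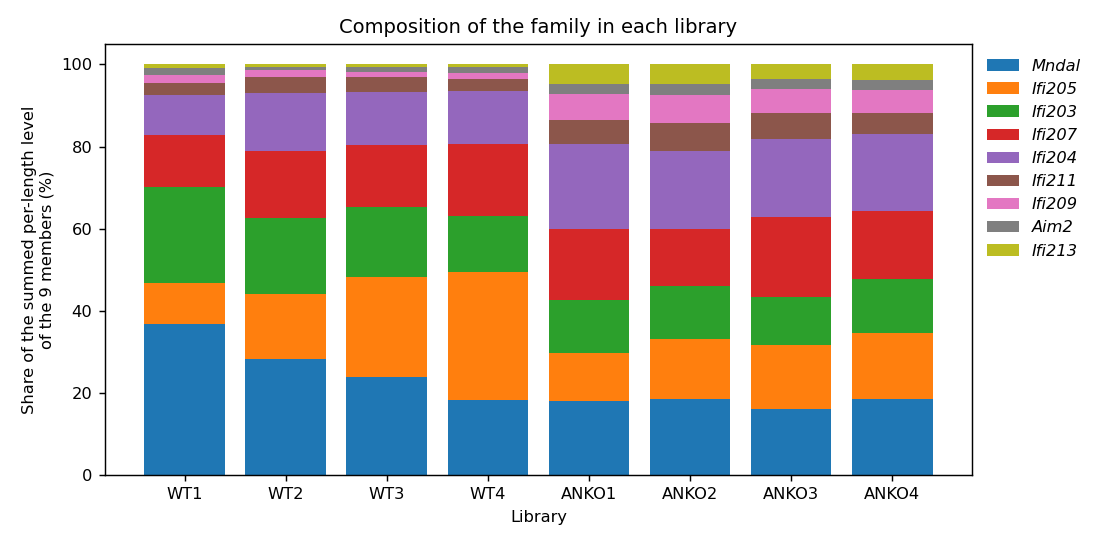
Share of each member in the summed RPKM of the 9 members (y axis, %) for each library (x axis), as stacked bars. Mndal and Ifi203 take 31.9% to 60.3% of the WT bars and 27.6% to 31.5% of the ANKO bars.

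Of the 5 other genes of the cluster, 4 were tested and 3 were called higher, beside 30.6% of all genes tested. These 3 are close copies too. Of their 50-base windows, 25.6% in Ifi206, 20.9% in Ifi208 and 14.6% in Ifi214 were also found in another gene. The gene sharing most was Ifi208 for Ifi206, Ifi213 for Ifi208 and Ifi209 for Ifi214. How their reads were divided was not tested, so these are not separate results. Ifi206 averaged 0.343 ± 0.111 CPM in the WT mice and 8.35 ± 1.86 CPM in the ANKO mice (SD, n = 4 each), a log2 fold change of 4.63 ± 0.27 (edgeR adjusted p = 7.6e-07). Ifi208 averaged 0.891 ± 0.322 and 7.29 ± 0.861 CPM, a log2 fold change of 3.07 ± 0.26 (edgeR adjusted p = 7.2e-06). Ifi214 had 0 to 5 counts in the WT libraries, with 0 in WT2, and 11 to 51 counts in the ANKO libraries; its fitted log2 fold change was 4.11 ± 0.49 (edgeR adjusted p = 6.8e-05).

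The pseudogene Ifi203-ps was the exception inside the cluster. It was at 9.36, 8.27, 7.75 and 4.80 CPM in the WT mice and at 8.88, 6.22, 6.53 and 10.3 CPM in the ANKO mice, and the groups overlapped. Its log2 fold change was 0.09 ± 0.24 (edgeR adjusted p = 0.77), although 24.3% of its 50-base windows are shared with Ifi203. Ifi202b did not pass the filter on low counts, with 6 to 14 counts in the WT libraries and 1 to 3 in the ANKO libraries.

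**Figure D4:**
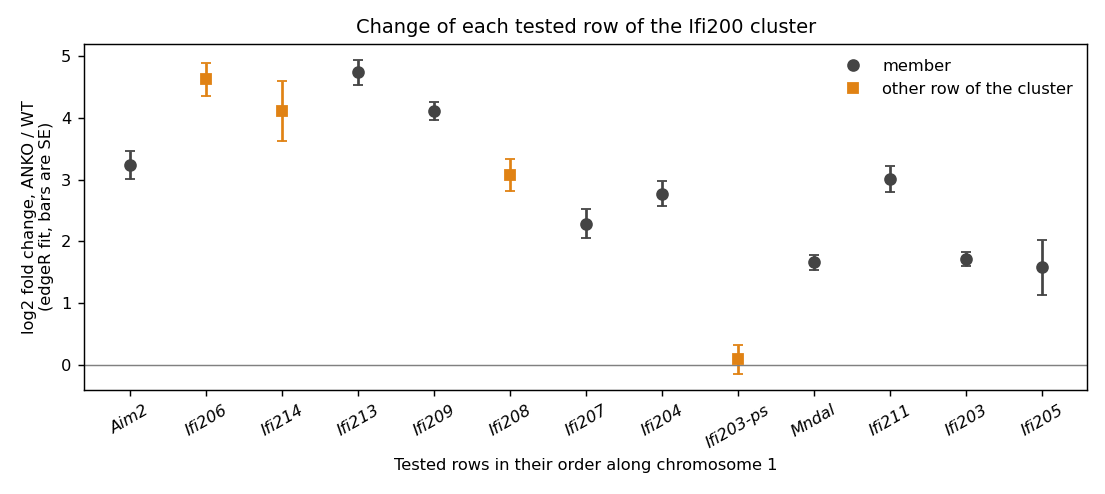
Log2 fold change of ANKO over WT (y axis) with its standard error for the 13 tested genes of the cluster, in their order along chromosome 1 (x axis); circles are members and squares the other genes. Ifi203-ps lies at 0.09 between Ifi204 at 2.78 and Mndal at 1.66.

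Genes within 1 Mb of the cluster were looked at because position was not used beyond it. On the proximal side 12 genes were tested, of which 10 were called higher, beside 30.6% of all genes. Pigm was called lower, beside 27.6% of all genes, and Dusp23 was not called. Cadm3, the nearest tested neighbour on that side and a cell adhesion gene whose annotated span overlaps that of Aim2, had a log2 fold change of 0.84 ± 0.16 (edgeR adjusted p = 0.0011). The olfactory receptor genes beside the cluster had at most 2 counts in any library.

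Pycard and Casp1, the partners of Aim2 in the inflammasome, were higher as well, and so were most genes of a wider list. The list covers inflammasomes and pyroptosis and also holds sensors of other inflammasomes. Of its 19 tested genes 17 were called higher, beside 30.6% of all genes tested. Ninj1 was called lower, beside 27.6% of all genes, and Nek7 was not called. The list's median log2 fold change was 2.57. Fewer of its genes were called higher with the muscle marker level in the fit, as given at the end. Pycard, the adaptor, averaged 3.30 ± 0.890 CPM in the WT mice and 8.55 ± 0.849 CPM in the ANKO mice (SD, n = 4 each), a log2 fold change of 1.38 ± 0.20 (edgeR adjusted p = 0.00024). With the muscle marker level in the fit its log2 fold change was 0.86 and was not called (edgeR adjusted p = 0.079). Casp1, the protease that Aim2 recruits, went from 1.42 ± 0.310 to 14.95 ± 2.80 CPM, a log2 fold change of 3.41 ± 0.20 (edgeR adjusted p = 8.4e-07).

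Gsdmd, which encodes the pore-forming protein that Casp1 cleaves, had a log2 fold change of 1.74 ± 0.12 (edgeR adjusted p = 1.7e-06). Nlrp3, the sensor of another inflammasome, rose by a log2 fold change of 1.62 ± 0.26 (edgeR adjusted p = 0.00045). The cytokines that Casp1 matures stayed low. Il18 averaged 0.405 CPM in the WT mice and 1.23 CPM in the ANKO mice, a log2 fold change of 1.57 ± 0.26 (edgeR adjusted p = 0.00049) that was not called with the muscle marker level in the fit (edgeR adjusted p = 0.050). Il1b was at 0.493 ± 0.333 CPM in the WT mice and 1.15 ± 0.288 CPM in the ANKO mice with overlapping groups, a log2 fold change of 1.35 ± 0.42 (edgeR adjusted p = 0.018) that was no longer called without WT3, without WT4 or without ANKO1 (log2 fold changes of 1.16, 1.20 and 1.14). Ninj1, which acts in membrane rupture, fell from 54.6 ± 3.18 to 34.8 ± 2.22 CPM, a log2 fold change of -0.65 ± 0.08 (edgeR adjusted p = 0.00012).

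The route through STING gave a mixed picture. Of 12 tested genes 7 were called higher, beside 30.6% of all genes, and Irf3 and Ddx41 lower, beside 27.6%. Tbk1, Trim56 and Rela were not called, and the median log2 fold change was 0.55. The sensor Cgas went from 1.41 ± 0.253 to 4.29 ± 0.610 CPM, a log2 fold change of 1.59 ± 0.21 (edgeR adjusted p = 0.00012). STING itself (Tmem173) went from 6.15 ± 1.02 to 14.8 ± 1.70 CPM, a log2 fold change of 1.27 ± 0.15 (edgeR adjusted p = 7.4e-05). Irf3, the factor that Tbk1 activates, fell from 68.3 ± 3.45 to 46.9 ± 1.98 CPM, a log2 fold change of -0.54 ± 0.08 (edgeR adjusted p = 0.00023). Irf7, which interferon induces, rose from 10.2 ± 1.32 to 176 ± 12.6 CPM, a log2 fold change of 4.11 ± 0.12 (edgeR adjusted p = 5.2e-08).

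Of 9 tested nucleases and other brakes on nucleic acid sensing, 7 were called higher, beside 30.6% of all genes. Rnaseh2c was called lower, beside 27.6% of all genes, and Rnaseh2a was not called. Samhd1, which hydrolyses deoxynucleotide triphosphates, went from 31.3 ± 3.64 to 131 ± 11.8 CPM, a log2 fold change of 2.07 ± 0.11 (edgeR adjusted p = 4.7e-07). Trex1, the main cytosolic DNA exonuclease, had 0 counts in all 8 libraries, and 100% of its 1314 exon bases are also exon bases of Atrip in the tables, so its level cannot be read from them.

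The 10 interferon genes looked at were scarcely read. Their Ifna genes were Ifna1, Ifna2, Ifna4 and Ifna5 alone, and other interferon genes were not looked at. Of 10 ligand genes only Ifnk passed the filter on low counts, at 0.220 ± 0.103 CPM in the WT mice and 0.798 ± 0.444 CPM in the ANKO mice (edgeR adjusted p = 0.011), and it was not called without WT3 and WT4, with the muscle marker level in the fit or after thinning. Ifnb1 had 0 counts in all WT libraries and 7, 2, 2 and 1 counts in ANKO1 to ANKO4. Ifng had at most 1 count in a WT library and 6, 2, 0 and 0 counts in the ANKO libraries. These counts lie at or near the floor of 3 counts, so no fold is given for them.

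The receptors of type I interferon were not called. Ifnar1 averaged 81.4 ± 4.34 CPM in the WT mice and 71.5 ± 4.61 CPM in the ANKO mice, a log2 fold change of -0.19 ± 0.08 (edgeR adjusted p = 0.073), and Ifnar2 had an edgeR adjusted p of 0.19. Of the 16 tested genes of receptors and signalling 13 were called higher, beside 30.6% of all genes. Ifngr1 was called lower, beside 27.6% of all genes, and the list's median log2 fold change was 1.09. Stat2 and Irf9, which belong to the factor that binds the interferon-stimulated response element, were among those higher: Stat2 had a log2 fold change of 1.43 ± 0.10 (edgeR adjusted p = 2e-06) and Irf9 of 1.01 ± 0.09 (edgeR adjusted p = 1.4e-05). Irf1 had a log2 fold change of 1.17 ± 0.10 (edgeR adjusted p = 8.6e-06).

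The myeloid factors Irf8 and Spi1 (PU.1) had larger ones. Irf8 had a log2 fold change of 3.11 ± 0.15 (edgeR adjusted p = 2.4e-07) and Spi1 of 3.76 ± 0.22 (edgeR adjusted p = 7e-07). All of these lists were put together with earlier results of these mice known, so their counts are a description beside the 30.6% of all genes called higher and the 27.6% called lower.

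Markers of immune cells moved with the family. Over all genes tested, 30.6% were called higher, 27.6% were called lower and 28.7% had every ANKO library above every WT library. All 14 macrophage markers were called higher, 13 of them without overlap between the groups, and their summed level was 155 to 219.8 CPM in the WT mice and 1245 to 1763 CPM in the ANKO mice. Mpeg1 had a log2 fold change of 4.39, Adgre1 of 3.32, Lyz2 of 3.28 and Csf1r of 2.21. The 10 T and NK cell markers were all called higher, with sums of 4.82 to 6.63 CPM in the WT mice and 36.0 to 58.8 CPM in the ANKO mice. Of 5 tested B cell markers 4 were called higher, with sums of 6.22 to 12.6 and 106 to 401 CPM, of which Ighm, the immunoglobulin heavy chain gene, made up 7.50 CPM on average in WT and 202 CPM in ANKO. Of the dendritic cell markers 5 were called higher, all without overlap, and 1 lower; that one, Zbtb46, averaged 70.4 CPM in WT and 54.1 CPM in ANKO and carried most of their overlapping sums of 70.1 to 85.4 and 70.7 to 76.4 CPM. Of 6 neutrophil markers only Csf3r passed the filter and was called higher, and Ly6g had 0 counts in every library. In whole tissue, fewer cells of a type and less RNA per cell cannot be told apart, nor can more of either.

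Other tissue markers moved too, and their counts stand beside the same shares over all genes: 30.6% higher, 27.6% lower and 28.7% without overlap above WT. All 6 adipocyte markers were called lower, and so were 4 of 6 brown adipocyte markers, among them Ucp1. The brown adipocyte markers summed to 5873 to 13017 CPM in the WT mice and 802 to 3024 CPM in the ANKO mice. The skeletal muscle markers summed to 925, 2599, 149 and 63.0 CPM in WT1 to WT4 and to 9066 to 13659.6 CPM in the ANKO mice, with 9 of 11 called higher and all 11 without overlap. Of 5 fibroblast markers 4 were called higher, and of 5 endothelial markers 3 were called lower. The part of any of these in the family's change was not tested. In a fit that also held the muscle marker level, which separates the groups without overlap, the log2 fold change of Ifi205 was 3.21, that of Ifi213 5.63, that of Aim2 3.98 and that of Ifi207 2.88. That of Mndal was 1.49 in this fit, its lowest under any setting, against 1.66 without the muscle marker level.

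Set against the macrophage markers, the members did not move alike; this ratio was formed after the values had been seen and carries no test. Per 100 CPM of the 14 markers the family as a whole stood at 37.2, 37.4, 41.6 and 34.5 CPM in WT1 to WT4 and at 20.7, 23.7, 17.5 and 23.2 CPM in ANKO1 to ANKO4. Aim2 (0.464 and 0.561 CPM on average in WT and ANKO), Ifi204 (3.08 and 2.71) and Ifi211 (0.590 and 0.616) kept ratios that overlapped between the groups.

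Ifi213 and Ifi209 were higher against the markers in ANKO without overlap. The ratio of Ifi213 was 0.357 to 0.603 in WT and 1.23 to 2.21 in ANKO, and that of Ifi209 was 0.538 to 0.692 and 1.08 to 1.70. Ifi203, Mndal and Ifi207 were lower against them without overlap. The ratio of Ifi203 was 10.02 to 15.1 in WT and 4.08 to 6.01 in ANKO, that of Mndal 6.91 to 12.1 and 2.90 to 4.40, and that of Ifi207 4.21 to 6.77 and 3.40 to 3.99. Ifi205 had mean ratios of 3.65 in WT and 1.46 in ANKO, with WT1 at 1.53 inside the ANKO range of 1.13 to 1.77.

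**Figure D5:**
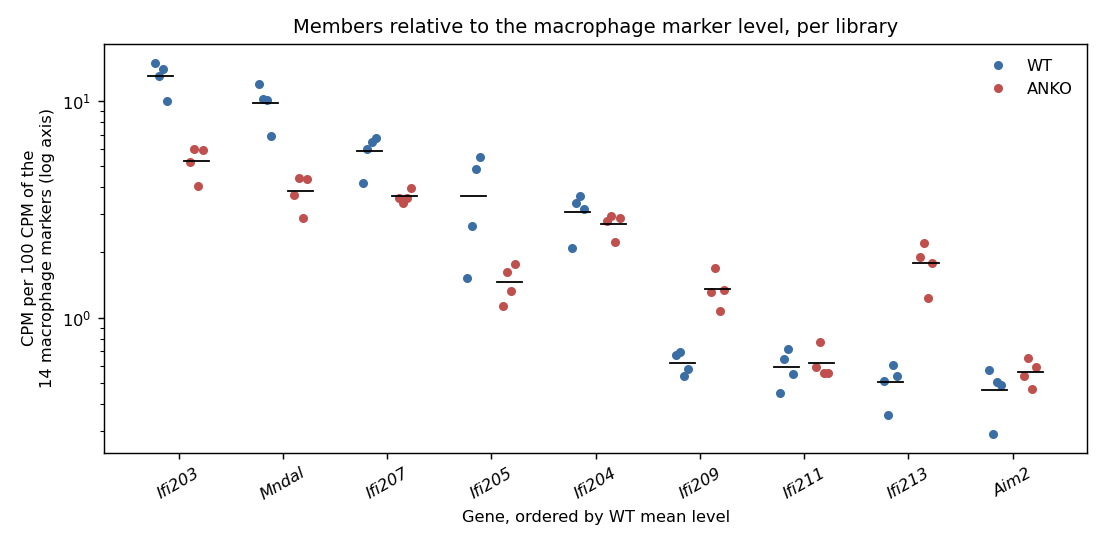
Level of each member per 100 CPM of the 14 macrophage markers (y axis, log axis) in each library; points are libraries, lines group means, and members are ordered by WT mean level (x axis). Ifi213 and Ifi209 lie higher in ANKO, Ifi203, Mndal and Ifi207 lower, and Aim2, Ifi204 and Ifi211 overlap.

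The genes whose profile over the 8 libraries came closest to the mean profile of the 9 members were Dok1, Alox5ap, Aoah, Ptprj and Adcy7. Closeness was the root mean square difference of centred log2 profiles, which was 0.130 for Dok1 and 0.163 for Adcy7, with a median of 1.36 over the 12325 protein-coding genes considered. Among the members themselves it ran from 0.126 for Ifi211 to 0.830 for Ifi213. The 8 profiles fall into 2 groups of libraries, so closeness mostly reports a fold change of like size.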

How the data were processed

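Total RNA from frozen tissue was freed of rRNA (Ribo-Zero Gold), per the labels' protocols. STAR 2.0.4b, featureCounts 1.45 and GRCm38 are named in the submitters' processing notes. How multiply placed reads were treated, whether strand was used and which annotation release was counted is not given in the sources used here. The authors deposited, per the file headers, the read count (whole numbers) with its CPM and RPKM for each of 41388 genes and 8 libraries. The deposited CPM and RPKM followed from the counts, the table total and the gene length, which equalled the union of exons. Symbols came from GENCODE M21, which matched 40340 genes by ID.

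Counts were tested with edgeR 4.0.16 in R 4.3.3 (TMM scaling, filterByExpr, robust quasi-likelihood test, no covariate, Benjamini-Hochberg over 16705 genes, called under 0.05), without 355 rRNA rows. CPM and RPKM printed here use the scaled library totals. Standard errors were derived from the F statistic. The series names 4 mice per group, so replicates are animals; whether they shared litters or days is not given. No libraries agreed within sampling noise (lowest chi-square per degree of freedom 7.16). Total counts of 5738067 to 49697156 limit low genes most in ANKO4, counting error only.

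The members and gene lists were chosen with earlier results of these data known. Named genes are the members, the other cluster genes, a fixed set from the lists, list members called against their list or not called, the nearest tested neighbours and the 5 closest profiles (mean of at least 2 CPM, log2 of CPM plus 0.5); other names were chosen after their values were seen. Gbp5 was not matched by symbol. Some genes that this rule names are not reported here. Alternatives were other scalings and filters, DESeq2 1.42.0, limma-voom (limma 3.58.1), a replicate block, each library left out, WT3 and WT4 left out, the muscle marker level as a covariate, protein-coding nuclear genes alone, thinning, stricter thresholds and GENCODE M21 lengths. Coding sequences were aligned with MAFFT 7.526 in place of the protein comparison that had been planned. The gene test and the search for the core of the interferon-stimulated response element were tested on simulated data, and the other sequence searches were not. Figures used matplotlib 3.10.9.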

Additional observations from a re-analysis of the deposited data

Results flagged for a closer look

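In 68 groups of 4 libraries (WT and ANKO, for the 14 genes of the cluster, the sum of the members, Nampt and those pathway genes of the fixed set of names that passed the filter on low counts), 3 held 1 library that stood far from the other 3 relative to the group's range (Dixon's 95% limit); chance alone marks about 1 group in 20. Ifi203 was at 92.5 CPM in ANKO4 and at 71.8 to 74.8 CPM in the other ANKO libraries, a gap of 0.855 of the range. ANKO4 is the shallowest library, and without it the log2 fold change of Ifi203 was 1.62 in place of 1.71. Il1b was at 0.990 CPM in WT1 and at 0.305 to 0.364 CPM in the other WT libraries, a gap of 0.914 of the range. Nampt was at 571 CPM in WT3 and at 483.7 to 494.6 CPM in the other WT libraries, a gap of 0.875 of the range.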

How the results depend on the processing

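The log2 fold change of each of the 9 members was above 0 under every setting run, which their choice favours. Ifi205 was not called at an adjusted p under 0.01 or in a test against a log2 fold change of 1. Ifi205 moved most, from 1.28 without WT1 to 3.21 with the muscle covariate; Ifi203 ran from 1.62 without ANKO4 to 1.95 after thinning, and Ifi213 from 4.58 without WT2 to 5.63 with the muscle covariate. Without any scaling the median of all genes moved by 0.18 on the log2 scale and 66.7% of calls were higher, against 52.5%. The muscle covariate cut the genes called from 9726 to 4117; leaving out 1 library gave 8942 to 10467. For the interferon ligands, 1 was called higher, 2 with no filter or with DESeq2, and 0 with at least 1 CPM in 4 libraries, without WT3 and WT4, with the muscle covariate or after thinning. The genes within 1 Mb of the cluster on either side that were called higher numbered 11, and 7 with at least 1 CPM in 4 libraries, 7 after thinning, 4 with the muscle covariate and 8 to 10 with 1 library left out. Fewer genes enter the filtered and thinned settings, and the cause of the other differences was not tested. GENCODE M21 lengths lowered the summed ANKO level to 76.0 RPKM, by construction where they exceed the length of the counted exons. With the muscle covariate Pycard (0.86), Il18 (1.57) and Il1b (0.83) kept their direction on the log2 scale and were no longer called, and 12 inflammasome genes and 9 receptor and signalling genes were called higher. The replicate numbers gave no sign that the mice were paired (correlations of same-numbered libraries 0.11, -0.01, 0.07 and -0.05). So few libraries cannot show that the mice were unpaired. A replicate block gave 9239 genes called.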
